A study of Prunus avium with 21 samples.

Results

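AHK4 is a cytokinin receptor, a membrane-bound histidine kinase also known as CRE1 in Arabidopsis. In the assembled transcriptome of sweet cherry (Prunus avium) flower buds, the study's annotation gave this name to transcripts TR10857|c1_g1_i2, described there as isoform X2, and TR10857|c1_g1_i6, described as isoform X1. All isoforms of the assembled gene TR10857|c1_g1 were taken, which gave 7 of 112043 transcripts, called i1 to i7 below after the last part of their names. The name AHK4 for i1, i3, i4, i5 and i7 rests on the assembly, which put them in the same gene, and no isoform sequence was analysed here. Of 48840 assembled genes, 7.67% had at least 7 isoforms. The sum of the 7 isoforms averaged 17.9 FPKM (fragments scaled to the length of the transcript and to the mapped fragments of the library) over all libraries, above the mean of 72.0% of the 29228 assembled genes that averaged 0.5 FPKM or more.

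Cytokinins bind to receptor histidine kinases, which then pass a phosphate through histidine phosphotransfer proteins to response regulators in the nucleus. Type-B response regulators activate cytokinin target genes, and type-A response regulators, themselves early targets, dampen the signal. Cytokinins are made by isopentenyltransferases (IPT), activated by LOG enzymes and degraded by cytokinin dehydrogenases (CKX), and they are known to promote shoot meristem activity and the outgrowth of buds. In Arabidopsis, AHK4 acts beside the receptors AHK2 and AHK3.

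The study asked which transcripts respond when dormancy of flower buds is released by hydrogen cyanamide (HC), a chemical used to induce bud break. Branches of the cultivar ‘Burlat’ on P. mahaleb rootstock were cut in January with part of the winter chill requirement still unmet, sprayed with 2% Dormex, a commercial HC solution, or with deionized water as control, and kept in a growth chamber in constant light. The 21 libraries fell into 7 groups of 3, namely HC at 1, 3 and 6 days after treatment (dat), water at 1, 3 and 6 dat, and an untreated sample at day 0. Each group held trees 4, 5 and 6, which stood next to each other in 1 orchard, and each library came from all flower buds of a single branch, so the groups describe cut branches of 3 trees and not whole plants. Treated and control branches were sampled in the morning and day 0 in the evening, before the growth chamber, so time of day and chamber cannot be told apart from time after treatment in any comparison with day 0.

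The FPKM of a library summed to between 671152 and 760090 over all transcripts, and each of the 21 libraries correlated best with a library of its own group. Reads per library are not known from FPKM, but the value of 1 fragment, estimated from 16075 transcripts, differed by at most 1.30 times between libraries. The floral organ identity markers DEFICIENS-like, PMADS 2 and SEPALLATA 1-like summed to 1.10 to 4.33 FPKM in HC buds and 2.69 to 3.05 FPKM in water buds at 3 dat, so transcripts of floral organs were present on that day. Within that sum the members lay apart. PMADS 2 had 0.702, 1.45 and 0.154 FPKM with HC, against 2.79, 2.49 and 2.34 FPKM with water, while SEPALLATA 1-like had 1.11, 2.26 and 0.754 FPKM with HC, against values at or near 0 in trees 4 and 6 and 0.338 FPKM in tree 5 with water.

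The summed AHK4 level was higher in HC buds than in water buds at 3 dat. It was 32.3, 28.0 and 35.7 FPKM in trees 4, 5 and 6 with HC, against 14.9, 19.9 and 15.4 FPKM in the same trees with water. The groups did not overlap, and the means were 32.0 ± 3.85 FPKM with HC and 16.7 ± 2.72 FPKM with water (SD, n = 3 each). Within trees, HC was 2.17 times water in tree 4, 1.41 times in tree 5 and 2.31 times in tree 6. The log2 FC was 0.92 (SE 0.14, 95% interval 0.583 to 1.26, on the scale of FPKM + 0.5), with an adjusted p of 0.00917 in limma over 29479 assembled genes. This passed the p threshold of 0.05 but not the study's fold change threshold of 1 (log2 scale), so the gene sum was not called by both criteria. The study applied its thresholds to single transcripts and with another test, EBSeq on estimated counts. At 3 dat, 15.0% of assembled genes passed the p threshold and 6.02% passed both. With the tree as a block, the adjusted p was 0.0263, and without any single library of that day it lay between 0.00893 and 0.0448. Without tree 5 with HC or tree 5 with water, the log2 FC was 1.01 and 1.05 and the gene sum was called. The study had itself picked i2 and i6 as responsive at 3 dat from these libraries, so tests on that day are not independent evidence of the direction. The same holds for every other comparison below that uses the HC libraries of 3 dat. In bulk buds, a larger share of cells with AHK4 RNA and more AHK4 RNA per cell cannot be told apart.

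The 3 HC libraries at 3 dat also stood above all 18 other libraries of the series. Those 18 ranged from 12.2 to 19.9 FPKM, with a median of 15.2 FPKM, and the lowest HC library at 3 dat, tree 5, had 28.0 FPKM. Among assembled genes, 19.7% had every HC library above every water library at 3 dat, and 0.927% had every HC library at 3 dat above all 18 others. Of the single isoforms, only i2 and i6 had that last pattern, which 0.571% of 62855 transcripts showed.

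**Figure D1:**
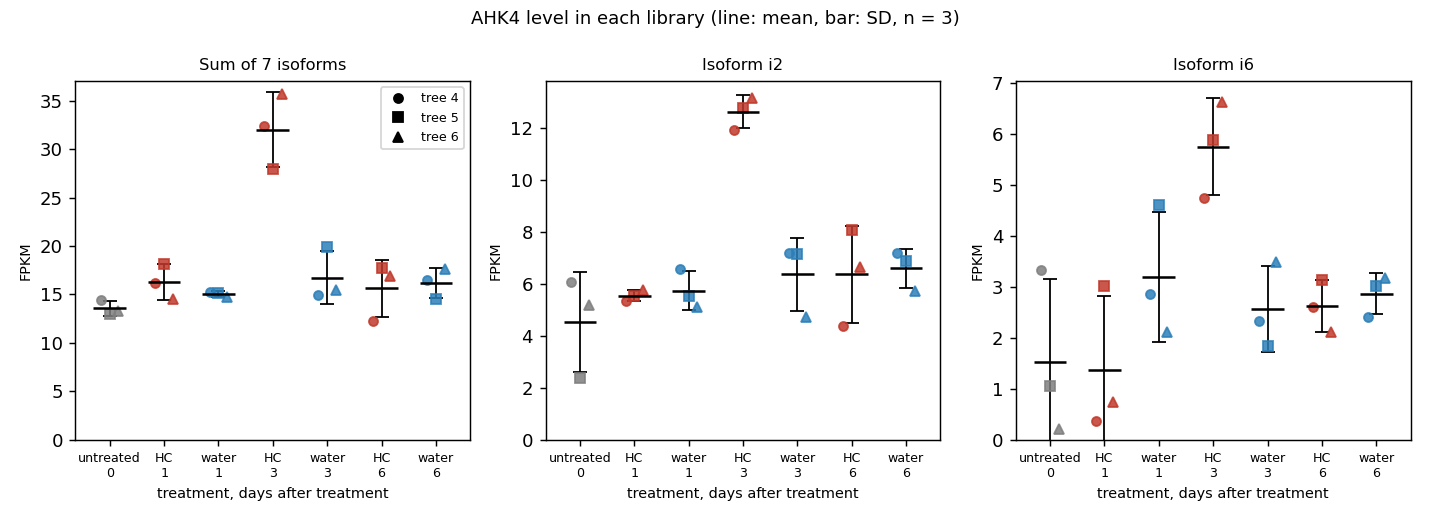
AHK4 level in FPKM (y axis, linear) in each library of the 7 groups, by treatment and days after treatment (x axis), for the sum of 7 isoforms, for i2 and for i6. Symbols give the tree, horizontal lines the mean and bars the SD (n = 3, drawn down to 0 at most), and the 3 HC libraries at 3 dat, at 28.0 to 35.7 FPKM for the sum, lie above all 18 others in each panel.

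Isoform i2 (TR10857|c1_g1_i2) was the most abundant form, with a mean of 6.82 FPKM over all libraries. At 3 dat it had 11.9, 12.8 and 13.2 FPKM with HC, against 7.20, 7.14 and 4.73 FPKM with water. The HC values lay close together, at 12.6 ± 0.631 FPKM (SD, n = 3), and none of the 18 other libraries exceeded 8.08 FPKM. The log2 FC of 0.96 (SE 0.20, 95% interval 0.491 to 1.43) had a limma adjusted p of 0.0427 over 63205 transcripts. It was thus past the p threshold, as were 4.67% of transcripts, but under the fold change threshold. With the tree as a block the adjusted p was 0.0874, and without any single library of that day it lay between 0.0638 and 0.126.

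Isoform i6 (TR10857|c1_g1_i6) averaged 2.84 FPKM over all libraries and showed the same order of groups at 3 dat at a lower level. It had 4.74, 5.88 and 6.62 FPKM with HC, against 2.33, 1.84 and 3.49 FPKM with water, and the highest of the 18 other libraries had 4.60 FPKM. Every HC library of the day was above every water library, a pattern shown by 13.7% of transcripts. The log2 FC was 1.06 (SE 0.28, 95% interval 0.412 to 1.70) with a limma adjusted p of 0.0797, so i6 passed the fold change but not the p threshold. The adjusted p was 0.108 with the tree as a block.

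None of the 7 isoforms was called by both criteria at 3 dat, where 3.01% of transcripts were called. Isoform i7, the second most abundant form, had 8.08, 3.45 and 8.33 FPKM with HC, against 0.679, 5.25 and 2.35 FPKM with water. Trees 4 and 6 were high with HC and tree 5 was not, and the log2 FC of 1.32 (SE 0.59) had a limma adjusted p of 0.267. Isoform i5 had 2.39, 1.96 and 2.20 FPKM with HC, against 0.840, 1.25 and 1.77 FPKM with water. The i5 groups did not overlap, but the difference did not pass (log2 FC 0.62, limma adjusted p = 0.335). Isoforms i1, i3 and i4 differed by 0.20, 0.44 and 0.16 on the log2 scale, and of these only i3 had groups that did not overlap, at 1.46 to 2.18 FPKM with HC and 1.03 to 1.27 FPKM with water.

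The difference of 15.3 FPKM between the HC and water means of the gene sum at 3 dat was divided over the isoforms, all of which had a higher mean with HC. Isoform i2 made up 41.1% of it, i7 25.3% and i6 20.9%, while i5 gave 5.87%, i3 4.01%, i1 1.89% and i4 0.913%. The 3 isoforms that gave most, i2, i7 and i6, were also the most abundant forms over all libraries, at 37.9%, 22.4% and 15.6% of the gene. This is a split of means, and in tree 5 i1, i4 and i7 were lower with HC, at 0.723, 0.766 and 0.658 times water.

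**Figure D2:**
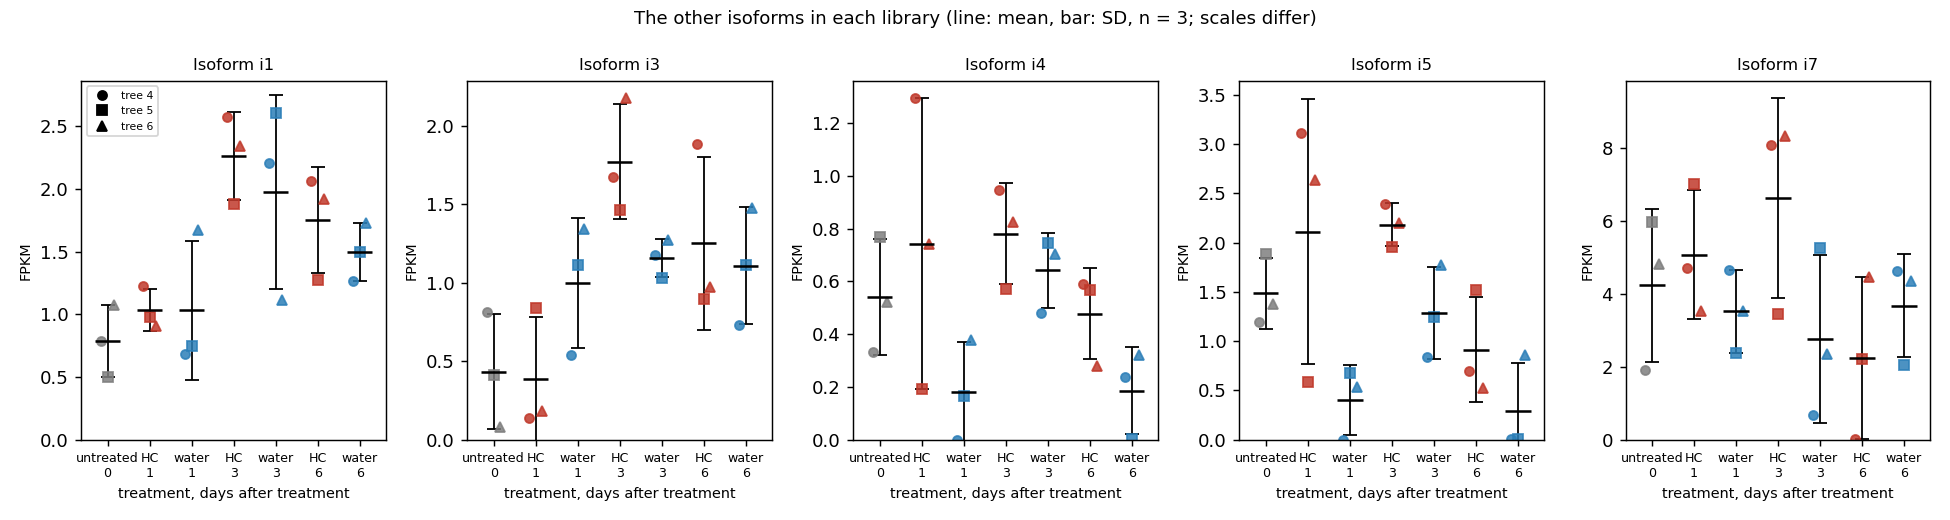
Level in FPKM (y axes, linear, scales differ) of isoforms i1, i3, i4, i5 and i7 in each library, by treatment and days after treatment (x axis). Symbols give the tree, lines the mean and bars the SD (n = 3, drawn down to 0 at most), and for i7 the HC libraries at 3 dat (3.45 to 8.33 FPKM) overlap the water libraries (0.679 to 5.25 FPKM), unlike those of i3 and i5.

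At 1 dat the gene sum had not separated between treatments. It was 16.2, 18.2 and 14.5 FPKM with HC, against 15.3, 15.2 and 14.7 FPKM with water, so the groups overlapped. The log2 FC was 0.10 (95% interval −0.123 to 0.328, limma adjusted p = 0.494), on a day when 23.9% of assembled genes passed the p threshold. Isoform i2 had 5.32, 5.55 and 5.75 FPKM with HC, against 6.58, 5.51 and 5.12 FPKM with water, a log2 FC of −0.04 (95% interval −0.428 to 0.348). None of the 6 isoforms tested was called, where 3.94% of transcripts were.

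Isoforms i5 and i6 lay in opposite directions at 1 dat, without passing the test. Isoform i6 had 0.358, 3.01 and 0.746 FPKM with HC, against 2.85, 4.60 and 2.11 FPKM with water, a log2 FC of −1.19 (SE 0.55, limma adjusted p = 0.271). Isoform i5 had 3.12, 0.585 and 2.64 FPKM with HC, against a value at or near 0, 0.678 and 0.535 FPKM with water, a log2 FC of 1.45 (SE 0.58, limma adjusted p = 0.205). In both isoforms trees 4 and 6 with HC stood apart from the water libraries and tree 5 with HC did not. The sum of i5 and i6, a combination formed after these values had been seen, was 3.47, 3.599 and 3.38 FPKM with HC, against 2.85, 5.27 and 2.64 FPKM with water.

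At 6 dat the treatments overlapped in the gene sum. It was 12.2, 17.7 and 16.9 FPKM with HC, against 16.4, 14.6 and 17.6 FPKM with water. The log2 FC was −0.07 (95% interval −0.456 to 0.324, limma adjusted p = 0.849), on a day when 7.21% of assembled genes passed the p threshold. Isoform i2 had 4.38, 8.08 and 6.66 FPKM with HC, against 7.18, 6.87 and 5.73 FPKM with water. Isoform i6 had 2.61, 3.13 and 2.12 FPKM with HC, against 2.40, 3.02 and 3.17 FPKM with water. Their log2 FC were −0.08 (95% interval −0.681 to 0.524) and −0.11 (95% interval −0.751 to 0.523). None of the 6 isoforms tested was called, against 1.41% of transcripts. Isoform i4 had a mean under 0.5 FPKM at 1 and 6 dat and was not tested on those days.

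The HC difference of the gene sum was tested between days in the 18 HC and water libraries. It was smaller at 6 dat than at 3 dat by 0.99 on the log2 scale (SE 0.20, 95% interval −1.42 to −0.552, limma adjusted p = 0.0206), where 2.55% of assembled genes passed the p threshold. With the tree as a block the adjusted p was 0.0287. The adjusted p was over 0.05 when water tree 4 at 3 dat (0.0571), water tree 6 at 3 dat (0.0555) or water tree 4 at 6 dat (0.0531) was left out. Between 3 and 1 dat the change of 0.82 (SE 0.20) did not pass, with a limma adjusted p of 0.0575 and 1.64% of assembled genes passing. That adjusted p was 0.0733 with the tree as a block and 0.0481 when the tested genes had to average 1 FPKM. With single libraries left out it was 0.0259 to 0.140, and at most 0.05 in 3 of 18 fits. For the single isoforms, no change of the HC difference was called, against 0.151% of transcripts between 3 and 1 dat and 0.321% between 6 and 3 dat. Isoform i6 had the largest point estimate between 3 and 1 dat among the 7, at 2.25 (SE 0.58, limma adjusted p = 0.142).

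Averaged over the 3 days, the HC difference of the gene sum was 0.32 on the log2 scale (SE 0.083, limma adjusted p = 0.00677). It passed the p threshold, as did 36.6% of assembled genes, but was below the fold change threshold. Of the 7 isoforms, i5 alone was called higher with HC on average (log2 FC 1.01, SE 0.29, limma adjusted p = 0.0236), against 4.98% of transcripts called. At 6 dat i5 had 0.699, 1.52 and 0.520 FPKM with HC, against values at or near 0 in trees 4 and 5 and 0.855 FPKM in tree 6 with water. The i5 call ended, with a log2 FC of 0.88 to 0.99 and an adjusted p of 0.0427 to 0.0514, without any one of HC trees 4 and 6 at 1 dat, HC tree 4 at 3 dat, HC tree 5 at 6 dat, water tree 4 at 1 dat, water tree 4 at 3 dat and water trees 4 and 5 at 6 dat. Isoforms i2 and i6 averaged 0.28 (adjusted p = 0.116) and −0.08 (adjusted p = 0.854) in limma.

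**Figure D3:**
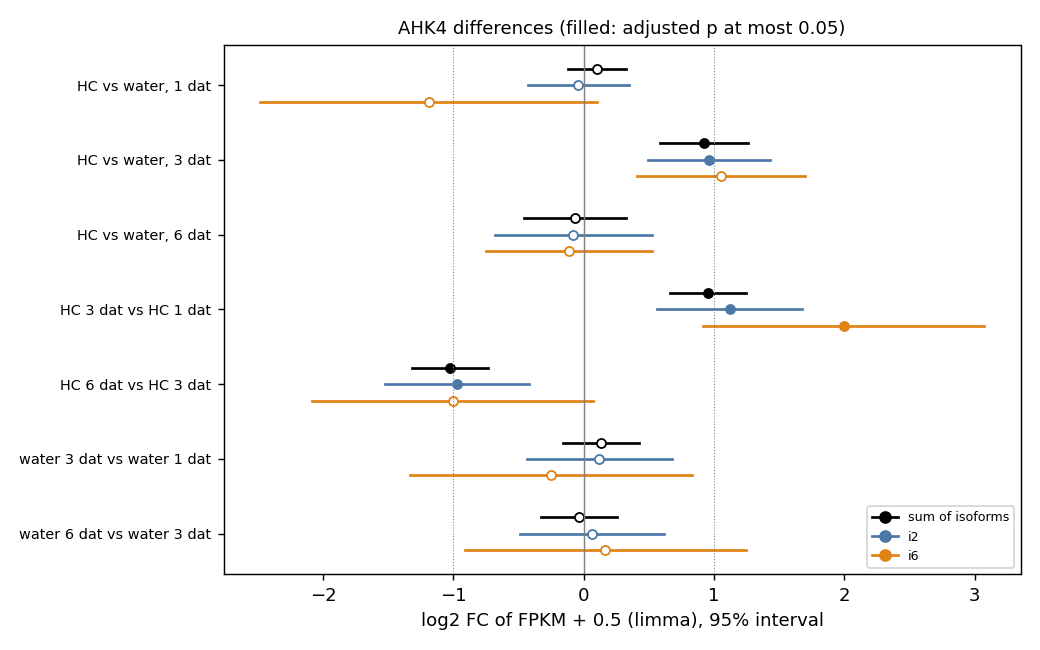
Differences in log2 (FPKM + 0.5) with their 95% interval (x axis) for the gene sum, i2 and i6 in 7 comparisons (y axis), the group named before vs minus the group named after it. Filled points had an adjusted p of at most 0.05 and dotted lines mark a log2 FC of −1 and 1; the interval of the gene sum excludes 0 in the 3 comparisons that involve HC at 3 dat, and includes 0 in the other 4.

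Over time, the AHK4 level changed in HC buds, while no step between days passed the test in water buds. With HC the gene sum averaged 16.3 ± 1.84, 32.0 ± 3.85 and 15.6 ± 2.95 FPKM at 1, 3 and 6 dat (SD, n = 3 each). The log2 FC at 3 against 1 dat was 0.95 (SE 0.14, limma adjusted p = 0.000107), past the p threshold that 23.0% of assembled genes passed and short of the fold change threshold. At 6 against 3 dat the gene sum fell by 1.02 (SE 0.14, limma adjusted p = 0.000130) and was called, as were 5.03% of assembled genes. That call ended on the fold change threshold without HC tree 6 at 3 dat (−0.94) or HC tree 4 at 6 dat (−0.86). With water it averaged 15.1 ± 0.321, 16.7 ± 2.72 and 16.2 ± 1.55 FPKM at 1, 3 and 6 dat (SD, n = 3 each). Those steps were 0.14 (95% interval −0.155 to 0.427) and −0.04 (95% interval −0.328 to 0.254) on the log2 scale, and neither passed.

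Among the isoforms, i2, i3 and i6 rose in HC buds at 3 against 1 dat and were called, against 4.76% of transcripts. Their log2 FC were 1.12, 1.43 and 2.00, with limma adjusted p of 0.0113, 0.0196 and 0.0199. Isoform i6 averaged 1.37 ± 1.43 FPKM with HC at 1 dat and 5.75 ± 0.946 FPKM at 3 dat (SD, n = 3 each). The sum of i5 and i6, formed after the values had been seen, averaged 3.49 FPKM with HC at 1 dat and 7.93 FPKM at 3 dat. The part that the division of shared reads had in the i6 rise was not tested. The i3 call ended without HC tree 4 or 6 at either day (adjusted p 0.0505 to 0.0922), and the i6 call without HC trees 4 or 6 at 1 dat or HC trees 5 or 6 at 3 dat (adjusted p 0.0551 to 0.108). At 6 against 3 dat no isoform was called. Isoform i2 passed the p threshold there, as did 4.63% of transcripts, with a log2 FC of −0.97 and a limma adjusted p of 0.0413, which was 0.0613 with the tree as a block and 0.00985 to 0.160 with single libraries left out. In water buds none of the 7 isoforms was called at 3 against 1 dat, where 0.121% of transcripts were, or at 6 against 3 dat, where 4.04% were.

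Against untreated buds of day 0, HC buds at 3 dat had a higher gene sum, at 32.3, 28.0 and 35.7 FPKM with HC and 14.4, 12.9 and 13.2 FPKM at day 0. The log2 FC of 1.21 (SE 0.14, limma adjusted p = 2.04e-06) was called, as were 17.5% of assembled genes. The median of all transcripts in this comparison was 0.18, so the gene sum stood about 1 log2 unit above it, and with the libraries rescaled by their median ratios the log2 FC was 0.97, short of the fold change threshold. Isoforms i1 (log2 FC 1.12), i2 (1.47), i3 (1.35) and i6 (1.94) were called higher, with limma adjusted p of 0.0130, 0.000509, 0.0128 and 0.0106, and i4, i5 and i7 were not. The i1 call ended without day 0 tree 5 (adjusted p = 0.0608) or HC tree 4 (0.0504), the i3 call without day 0 tree 6 (0.0782) or HC tree 6 (0.0535), and the i6 call without day 0 tree 6 (0.0713). This was 4 of 7 isoforms, where 13.4% of transcripts were called in either direction.

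In the 5 other groups the gene sum differed from day 0 by 0.15 to 0.29 on the log2 scale and passed the p threshold in none. No isoform was called in HC buds at 1 dat or 6 dat, against 8.30% and 19.8% of transcripts, nor in water buds at 1 dat or 3 dat, against 7.34% and 8.94%. In water buds at 6 dat i5 was called lower than at day 0, where 16.9% of transcripts were called. It had values at or near 0 in trees 4 and 5 and 0.855 FPKM in tree 6, against 1.19, 1.89 and 1.37 FPKM at day 0 (log2 FC −1.49, SE 0.48, limma adjusted p = 0.0292). That call ended without day 0 tree 5 (adjusted p = 0.0889), day 0 tree 6 (0.0619) or either of water trees 4 and 5 (0.115). In order of the mean gene sum, HC at 3 dat (32.0 FPKM) was followed by water at 3 dat (16.7), HC at 1 dat (16.3), water at 6 dat (16.2), HC at 6 dat (15.6), water at 1 dat (15.1) and day 0 (13.5). The ranges of neighbours in this order overlapped below the highest group, except that water at 1 dat (14.7 to 15.3 FPKM) lay above day 0 (12.9 to 14.4 FPKM).

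At 3 dat the shares of i2 and i6 in the gene sum overlapped between treatments. Isoform i2 made up 36.9%, 45.7% and 36.9% of the sum with HC, against 48.3%, 36.0% and 30.7% with water. Isoform i6 made up 14.7%, 21.0% and 18.6% with HC, against 15.6%, 9.29% and 22.6% with water. The difference in mean share at 3 dat was 1.53 percentage points for i2 and 2.23 percentage points for i6. With 3 against 3 libraries an exact permutation test cannot go below p = 0.1, so single days were not tested.

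At 1 dat the shares lay further apart. Isoform i6 made up 2.22%, 16.6% and 5.15% with HC, against 18.6%, 30.3% and 14.3% with water. Isoform i5 made up 19.3%, 3.22% and 18.2% with HC, against 0% (rounded), 4.46% and 3.64% with water. The mean difference was −13.1 percentage points for i6 and 10.9 percentage points for i5, and tree 5 with HC was the library nearest to the water values for both.

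Over the 3 days together, no share differed between treatments by a two-sided exact permutation test that permuted labels within days (8000 arrangements, 7 isoforms compared). The mean HC minus water difference was 4.70 percentage points for i5 (8.74% with HC and 4.04% with water, exact p = 0.0715, adjusted p = 0.501), higher with HC in 6 of 9 pairs of the same tree and day. It was −3.82 points for i6 (14.4% with HC and 18.2% with water, exact p = 0.249, adjusted p = 0.581), higher in 2 of 9 pairs. For i2 it was −0.996 points (38.2% with HC and 39.2% with water, exact p = 0.720, adjusted p = 0.828). The other 4 isoforms had mean differences of −1.37 to 1.41 points and adjusted p of 0.559 to 0.828 in the same exact test.

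**Figure D4:**
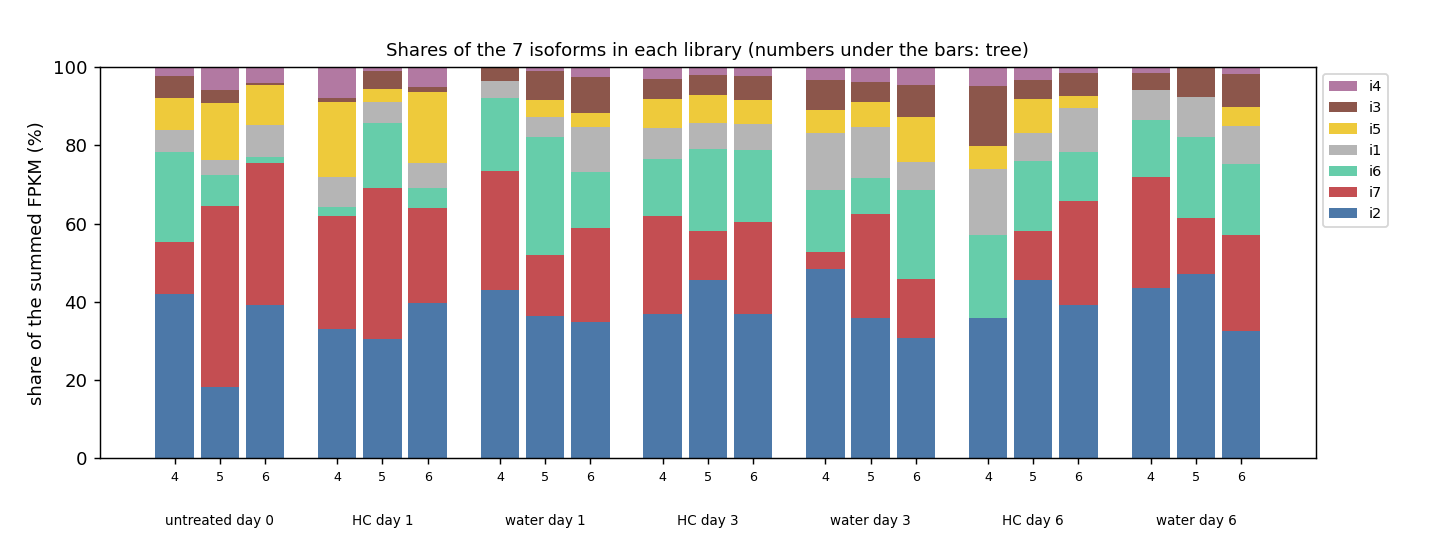
Share of each isoform in the summed FPKM of the gene (y axis, percent) in each of 21 libraries, grouped by treatment and day (x axis, numbers give the tree). At 3 dat i2 took 36.9% to 45.7% with HC and 30.7% to 48.3% with water, while at 1 dat i6 took 2.22% to 16.6% with HC and 14.3% to 30.3% with water.

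Over the 7 groups, the gene sum had the lowest median coefficient of variation between trees. It was 11.3%, against 13.2% for i2, 24.1% for i1, 33.0% for i6, 40.5% for i4, 41.5% for i3 and i7, and 58.5% for i5. In single groups the order could differ, since with HC at 3 dat it was 12.0% for the gene sum, 5.00% for i2 and 9.97% for i5. Isoforms of 1 gene share reads, which the quantification divided between them, and how they were divided can change each isoform and, where isoforms differ in length, their sum. Across the 21 libraries, deviations from the group means correlated between i4 and i5 (r = 0.854) and between i3 and i6 (r = 0.517), and ran opposite between i4 and i6 (r = −0.514) and between i1 and i6 (r = −0.471). These are descriptions over values that share libraries and reads. The share of i7 ranged from 0.111% (HC, tree 4, 6 dat) to 46.2% (day 0, tree 5), that of i5 from 0% (rounded) to 19.3% and that of i6 from 1.59% to 30.3%, while i2 stayed between 18.2% and 48.3%.

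The rest of the cytokinin pathway was described from a list of 20 transcripts taken from the study's tables of responsive transcripts, so their directions are not independent of these libraries. At 3 dat, 16 of 20 were tested, 2 were called higher and 2 lower with HC. The median log2 FC of the 16 was 1.18, beside −0.04 over all transcripts. At 1 dat 3 of 13 tested were called higher and 1 lower (median 0.81, beside −0.10), and at 6 dat 2 of 14 were called higher and 1 lower (median 0.69, beside −0.07). On average over the days 5 of 15 were called higher and 3 lower (median 0.89, beside −0.08). With the tree as a block, the calls at 3 dat were 1 up and 2 down and those at 1 dat 3 up and 0 down. At 6 dat the block left 0 calls, and on average 4 up and 3 down. The share called over all transcripts is given above for each comparison.

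IPT3, for synthesis, was higher with HC at 1 dat and had the opposite order at 6 dat. IPT3 (TR4571|c0_g1_i1), an isopentenyltransferase, had 5.43, 5.03 and 3.19 FPKM with HC, against 0.865, 0.869 and 0.898 FPKM with water at 1 dat. It was called higher (log2 FC 1.84, SE 0.27, limma adjusted p = 0.00794), a call that ended without tree 4 of both treatments (log2 FC 1.71, adjusted p = 0.107). Its HC difference was lower at 6 dat than at 1 dat (−3.00, limma adjusted p = 0.00166), a change that passed the p threshold for 2.13% of transcripts. At 6 dat IPT3 had 0.771, 0.437 and 0.847 FPKM with HC, against 2.51, 1.78 and 2.07 FPKM with water. The log2 FC of −1.15 had a limma adjusted p of 0.146, or 0.0234 in a fit of all 21 libraries. LOG5 (TR39645|c3_g1_i2) had 4.51, 5.62 and 8.45 FPKM with HC, against 2.83, 2.59 and 2.75 FPKM with water at 1 dat, a difference that missed the p threshold (log2 FC 1.01, limma adjusted p = 0.0558). It was called when the tested transcripts had to average 1 FPKM (adjusted p = 0.0457). Its average over the days passed the p threshold (log2 FC 0.89, limma adjusted p = 0.00751) but not the fold change threshold. The cytokinin hydroxylase-like transcript TR33523|c0_g1_i1 was called higher at 1 dat (log2 FC 2.12, limma adjusted p = 0.00752, and 0.0891 without tree 4 of both treatments). It had 1.77 to 1.97 FPKM with HC and 0.0358 to 0.0756 FPKM with water on that day. The 0.5 FPKM needed for a test was thus reached only through its HC level, and the call is not independent support. The transcripts TR25826|c0_g1_i1 and TR25826|c0_g3_i1 of IPT9, which modifies tRNA, were not called on any day tested.

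The degradation enzyme CKX5 (TR12908|c3_g1_i1) was lower with HC on the day AHK4 was higher. At 3 dat it had 3.43, 2.23 and 3.35 FPKM with HC, against 9.17, 6.09 and 8.95 FPKM with water. It was called lower at 3 dat (log2 FC −1.29, SE 0.26, limma adjusted p = 0.0367, 0.0460 with the tree as a block) and at 1 dat (log2 FC −1.40, limma adjusted p = 0.0134, 0.0581 with the block). The call at 3 dat held when water tree 5 was left out and ended without any other single library of that day (adjusted p 0.0651 to 0.136), and the call at 1 dat ended without water tree 5 (0.0614) or water tree 6 (0.0564). In water buds CKX5 averaged 5.02 ± 0.995, 8.07 ± 1.72 and 5.46 ± 0.446 FPKM at 1, 3 and 6 dat, against 2.07 ± 0.380 FPKM at day 0 (SD, n = 3 each). It was called higher than at day 0 on each of these days (log2 FC 1.09, 1.72 and 1.22, limma adjusted p = 0.00179, 2.3e-05 and 0.000297), although the value at 1 dat was 0.96 with a pseudocount of 1 FPKM and 0.98 with rescaled libraries, under the fold change threshold. Among 5 purine permease transcripts, members of a family that can carry cytokinins in Arabidopsis, 4 of 4 tested were called higher with HC on average. Over all transcripts, 4.98% were called in that comparison. The 5 were listed by the study as responsive in these libraries and include forms of the same assembled gene, so the count is not independent support. The most abundant, purine permease 9 (TR41236|c1_g2_i2), was called on all 3 days (log2 FC 1.48, 1.26 and 1.81). It averaged 29.8 FPKM at day 0, against 40.2, 23.7 and 28.2 FPKM with HC and 14.1, 9.29 and 7.82 FPKM with water at 1, 3 and 6 dat. With the tree as a block it was not called at 3 dat (adjusted p = 0.0686) or 6 dat (0.0564). The call at 3 dat held only when HC tree 6 was left out (adjusted p up to 0.107 otherwise) and that at 6 dat only when water tree 5 or HC tree 6 was (up to 0.0813).

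**Figure D5:**
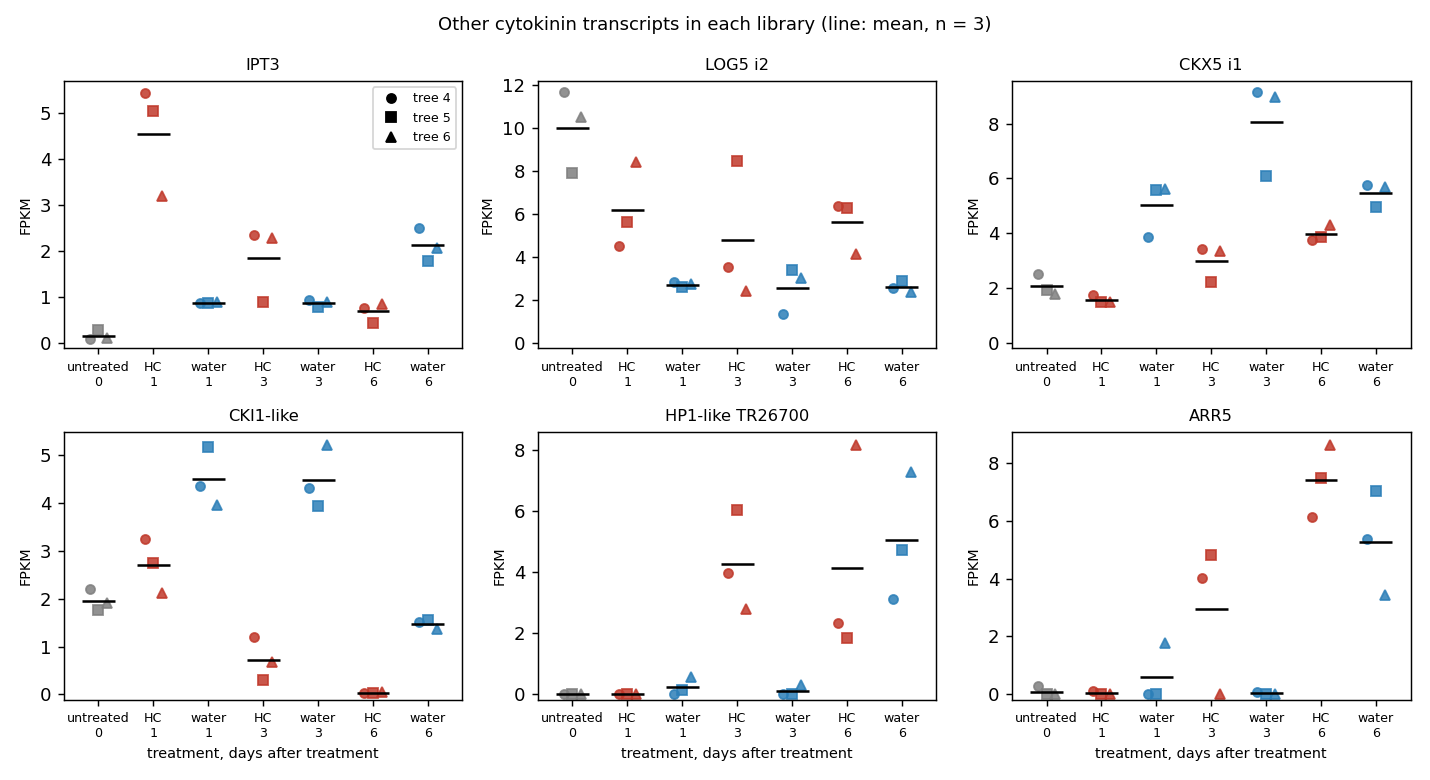
FPKM (y axes, linear, scales differ) of 6 other cytokinin transcripts in each library, by treatment and days after treatment (x axis). Symbols give the tree and lines the mean (n = 3); at 3 dat CKX5 i1 lies at 2.23 to 3.43 with HC and 6.09 to 9.17 with water, and the HP1-like transcript at 2.81 to 6.05 with HC and 0 to 0.290 with water.

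Of the other histidine kinases, the 1 transcript listed for the receptor histidine kinase 3 (TR36610|c2_g4_i5) had at most 1.20 FPKM in any library and was tested only at 1 dat, where it was not called (log2 FC 0.81, limma adjusted p = 0.427). The CKI1-like histidine kinase (TR4698|c0_g1_i1), whose Arabidopsis relative does not need cytokinin to signal, was called lower with HC at 3 dat. It had 1.20, 0.300 and 0.668 FPKM with HC, against 4.31, 3.94 and 5.22 FPKM with water (log2 FC −2.09, SE 0.36, limma adjusted p = 0.0236). That call held only when HC tree 4 was left out, with an adjusted p of 0.0535 to 0.102 without any other library of the day. At 6 dat it was again called lower (log2 FC −1.89, limma adjusted p = 0.0456, 0.119 with the tree as a block), a call that ended without any 1 of the 6 libraries (0.0875 to 0.178). The listed histidine kinase 3 transcript was under the minimum level for a test at 3 dat.

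Downstream of the receptors, the phosphotransfer transcript HP1-like TR26700|c2_g1_i9 was called higher with HC at 3 dat. It had 3.99, 6.05 and 2.81 FPKM with HC, against 0, 0 and 0.290 FPKM with water (log2 FC 2.98, SE 0.40, limma adjusted p = 0.0130), a call that ended without water tree 4 (adjusted p = 0.0502) or HC tree 4 (0.0564). In water buds of 3 dat it was under the 0.5 FPKM needed for a test. On that day it was thus tested only through its HC level, and the call is not independent support. This transcript was listed at 0 in all 3 HC libraries of 1 dat and in all 3 of day 0. At 6 dat it had 2.34, 1.86 and 8.18 FPKM with HC, against 3.13, 4.73 and 7.28 FPKM with water, so the groups overlapped. Its HC difference was called larger at 3 than at 1 dat (3.48, limma adjusted p = 0.0465) and smaller at 6 than at 3 dat (−3.43, limma adjusted p = 0.0336), calls that ended without 14 and 13 of 18 single libraries. Its water level at 6 dat (5.05 ± 2.09 FPKM, SD, n = 3) was near the HC level of 3 dat. The other HP1-like transcript, TR26685|c1_g3_i3, had 6.51, 8.97 and 2.10 FPKM with HC, against 0, 0 and 1.44 FPKM with water at 3 dat, which missed the p threshold (log2 FC 2.83, limma adjusted p = 0.0638) but was called in the fit of all 21 libraries (0.0105). Its water mean at 3 dat was also under 0.5 FPKM, so the test within that day was reached only through its HC level.

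Type-A response regulators, whose RNA is a usual readout of cytokinin signalling, were not called at 3 dat, where both listed transcripts were tested. At 6 dat 1 of 2 was tested and not called, and at 1 dat 0 of 2 could be tested. ARR5 (TR25472|c0_g2_i1) had 4.02, 4.81 and a value near 0 with HC, against 0.0871 FPKM and 2 values near 0 with water at 3 dat (log2 FC 2.12, limma adjusted p = 0.227). Trees 4 and 5 were high with HC and tree 6 was not, and without HC tree 6 the difference was called (log2 FC 3.22, adjusted p = 0.0204). At 6 dat ARR5 was high in both treatments, at 6.13, 7.48 and 8.62 FPKM with HC and 5.37, 7.01 and 3.43 FPKM with water. The ARR16-like transcript (TR33688|c2_g1_i5) had 3.78, 0.348 and 3.07 FPKM with HC, against 0.116, 0.698 and 0.0260 FPKM with water at 3 dat (log2 FC 1.69, limma adjusted p = 0.219). With water both transcripts averaged under 0.5 FPKM at 3 dat, so both were tested on that day only through their HC level. The ARR16-like average over the days was called (log2 FC 1.12, limma adjusted p = 0.0319, 0.0502 with the tree as a block), a call that ended without 12 of 18 single libraries (adjusted p 0.0503 to 0.0671).

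Markers of other tissues of the bud also differed between treatments at 3 dat. The 5 anther transcripts summed to 5.36, 8.73 and 3.90 FPKM with HC, against 0.0510, 0.354 and 0.410 FPKM with water. Of these, 3 of 3 tested were called higher (limma adjusted p 0.0272 to 0.0499, with the tree as a block 0.0682 to 0.0988), where 3.01% of transcripts were called. All 3 are forms of 1 assembled gene, the tapetum regulator DYSFUNCTIONAL TAPETUM 1. In water buds the whole set stayed under the 0.5 FPKM needed for a test. These forms were thus tested only through their HC level, and the count is not independent support. With a single library left out, TR35411|c2_g3_i5 and TR35411|c2_g3_i12 were called in 1 fit each, and TR35411|c2_g3_i8 in 0. The later anther genes TAPETUM 1 and fatty acyl-CoA reductase 2 were at or near 0 in both treatments at 3 dat. The 2 photosynthesis transcripts summed to 20.6, 29.4 and 15.4 FPKM with HC, against 5.11, 7.27 and 6.44 FPKM with water, nearly all of it psbY, which was called higher (limma adjusted p = 0.0157, and 0.0577 to 0.0652 without HC tree 4, water tree 4 or water tree 6). The other, LHCII type 1-like, had a value near 0, 0.0334 and 0.210 FPKM with HC, against 0.739, 0.829 and 0.484 FPKM with water. It was not tested at 3 dat, and on average over the days it was called lower (log2 FC −1.05, limma adjusted p = 0.00545) and psbY higher (1.67, 7.47e-07). At 1 dat the photosynthesis sum was 42.7 to 47.6 FPKM with HC and 6.49 to 9.89 FPKM with water, when the AHK4 sum was 14.5 to 18.2 FPKM with HC and 14.7 to 15.3 FPKM with water. At 6 dat the anther sum was 16.7 to 113 FPKM with HC and 2.59 to 20.3 FPKM with water, when the AHK4 sum was 12.2 to 17.7 FPKM with HC and 14.6 to 17.6 FPKM with water. With HC that sum was mostly TAPETUM 1, at 11.6 to 95.5 FPKM with HC and 0 to 14.6 FPKM with water. The DYSFUNCTIONAL TAPETUM 1 form TR35411|c2_g3_i5 averaged 2.50 FPKM at 3 dat and 0.3305 FPKM at 6 dat with HC, against 0.140 and 1.17 FPKM with water. Its HC difference was smaller at 6 than at 3 dat (−3.08, limma adjusted p = 0.0412, 0.0572 with the tree as a block), as was that of TR35411|c2_g3_i8 (−2.82, 0.0345), and so was that of the AHK4 sum. The part of these tissues in the AHK4 level at 3 dat was not tested.

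The transcripts of other genes whose level was most like that of AHK4 were ranked over the 21 libraries among the 44960 transcripts averaging 1 FPKM or more. For the gene sum the closest was TR12423|c0_g2_i2, which the study's tables place in the purine metabolism set without a name (Pearson r = 0.861, Spearman rho = 0.760). It was followed by TR31545|c1_g2_i1, TR26029|c6_g4_i3, TR40222|c0_g1_i1 and TR33485|c0_g3_i1 (r = 0.849 to 0.823). For i2 the closest was TR41262|c0_g1_i1 (r = 0.834, rho = 0.718), then TR12712|c0_g1_i2, TR12567|c3_g3_i5, TR7810|c0_g1_i4 and TR13482|c0_g2_i1 (r = 0.833 to 0.808). For i6 it was TR12942|c6_g1_i1 (r = 0.847, rho = 0.814), then TR33151|c1_g1_i3, TR12810|c0_g2_i10, TR13371|c2_g1_i2 and TR26756|c0_g2_i4 (r = 0.810 to 0.784). The 3 lists had no transcript in common, and the correlations are descriptions over libraries that form 7 groups.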

How the data were processed

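The deposited values were FPKM per transcript, estimated by the authors with eXpress 1.5.1, which divides reads shared by isoforms, from STAR alignments (version not given in the sources used here) to a de novo Trinity assembly of reads trimmed by Trimmomatic 0.33. Groups followed the labels (7 groups of 3 trees). Gene sums added the FPKM of all isoforms of an assembled gene. Differences were tested with limma 3.58.1 (R 4.3.3, trended empirical Bayes) on log2(FPKM + 0.5) for features averaging 0.5 FPKM or more in the libraries used, with Benjamini-Hochberg adjustment over all features, so fold changes of low transcripts are understated. Calls needed both thresholds of the study, 0.05 for the adjusted p and 1 for the absolute log2 FC. The study used them with EBSeq on counts estimated by eXpress, so a missed call here is not a repeat of its test. Comparisons within a day used that day's libraries, averages and changes between days the 18 HC and water libraries, and comparisons with day 0 or between days of a treatment all 21. Isoform shares were compared by exact permutation (Python 3.11.15, numpy 2.4.6, pandas 2.3.3; figures with matplotlib 3.10.9). The scripts were tested on simulated data.

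Trees carry the same number in every group because each group took branches of the same 3 trees, so a fit with the tree as a block was run beside each test. Deviations of HC and water libraries from their group means correlated at r = −0.0147 to 0.0587 for the same tree and −0.12 to 0.126 for different trees. The genes named are the 7 isoforms, the cytokinin list (receptors, phosphotransfer, response regulators, IPT3, LOG5 and CKX5 with values) and, for i2, i6 and the gene sum, the 5 transcripts of other genes with the highest Pearson r. The other list entries with values (CKI1-like, hydroxylase-like, purine permease 9, IPT9) were added after their values were seen. The isoforms and lists were chosen with earlier results of these data known. The study used 2 replicates that it does not name at 1 dat, and all 3 were used here. Alternatives were the tree block, other pseudocounts, filters, rescaled libraries, a fit of all 21 libraries, trees 5 and 6 only at 1 dat, no fold change threshold, and leaving out each library. FPKM keep no read counts, so counting error per value is unknown.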

Additional observations from a re-analysis of the deposited data

Results flagged for a closer look

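The HC difference of the AHK4 gene sum changed between days by a test of the difference itself. It was −0.99 on the log2 scale at 6 dat relative to 3 dat (limma adjusted p = 0.0206, 0.0287 with the tree as a block), with log2 FC of 0.92 at 3 dat and −0.07 at 6 dat. Within trees, HC was 2.17, 1.41 and 2.31 times water at 3 dat in trees 4, 5 and 6, and 0.744, 1.21 and 0.961 times water at 6 dat. The study had picked i2 and i6 at 3 dat from these libraries, so this change is not independent evidence.

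The same test passed for 3 transcripts of the cytokinin pathway. HP1-like TR26700|c2_g1_i9 had a change of 3.48 at 3 dat relative to 1 dat and of −3.43 at 6 dat relative to 3 dat (limma adjusted p = 0.0465 and 0.0336). IPT3 (TR4571|c0_g1_i1) had one of −3.00 at 6 dat relative to 1 dat (0.00166), and the hydroxylase-like TR33523|c0_g1_i1 one of −1.97 (0.0404). The IPT3 change was called without any single library, and that of the hydroxylase-like transcript in 5 of 18 such fits. With water, the hydroxylase-like transcript averaged under 0.5 FPKM on each day, as did HP1-like TR26700|c2_g1_i9 at 3 dat. All 3 transcripts were listed by the study as responsive in these libraries, so these changes are not independent support.

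Among the tissue markers, the DYSFUNCTIONAL TAPETUM 1 forms TR35411|c2_g3_i5 and TR35411|c2_g3_i8 changed by −3.08 and −2.82 at 6 dat relative to 3 dat (limma adjusted p = 0.0412 and 0.0345), and psbY (TR15638|c0_g1_i1) by −1.70 at 6 dat relative to 1 dat (0.0181). With a single library left out, these changes were called in 4 of 18, 5 of 14 and 15 of 18 fits.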

How the results depend on the processing

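For 77 results, 470 of 534 values under alternatives that kept every library, or trees 5 and 6 at 1 dat, stayed in direction and on their side of the threshold. With no fold change threshold, values that had missed it became calls, among them the gene sum at 3 dat (0.92), on average (0.32), in the change between 3 and 6 dat (−0.99) and in HC buds at 3 against 1 dat (0.95), and i2 at 3 dat (0.96). With a pseudocount of 0.1 FPKM the gene sum change between 3 and 6 dat (−1.0) and i2 at 3 dat (1.00, adjusted p = 0.0477) were called. Calls were lost for the gene sum in HC buds at 6 against 3 dat with a pseudocount of 1 FPKM (−1.0) and with rescaled libraries (−0.98), and for HC at 3 dat against day 0 with rescaled libraries (0.97). The i2 difference at 1 dat changed sign with trees 5 and 6 only (0.0809). Isoform calls that ended were the average of i5 with a pseudocount of 1 FPKM (0.72) or rescaled libraries (0.99), i1 (0.88) and i3 (0.97) against day 0 with a pseudocount of 1 FPKM, and with rescaled libraries i1 against day 0 (0.95) and i2 at 3 against 1 dat in HC buds (0.99). With no filter, calls of CKX5, CKI1-like, HP1-like, purine permease 9, psbY and the DYSFUNCTIONAL TAPETUM 1 forms at 3 dat ended (adjusted p 0.0532 to 0.110). So did those of CKI1-like and purine permease 9 at 6 dat, the ARR16-like average, and the changes between days of HP1-like, hydroxylase-like and TR35411|c2_g3_i5 (0.052 to 0.0758). Without the filter i2 had an adjusted p of 0.0932 at 3 dat and 0.0589 in HC buds at 6 against 3 dat. The tree block moved the gene sum at 3 dat from an adjusted p of 0.00917 to 0.0263. It ended the calls given above for CKX5 at 1 dat, purine permease 9, CKI1-like at 6 dat, the ARR16-like average and the DYSFUNCTIONAL TAPETUM 1 forms (except the change of TR35411|c2_g3_i8 between 3 and 6 dat), left i2 with an adjusted p over 0.05 at 3 dat and in HC buds at 6 against 3 dat, and changed no other call among these results.

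With each library left out in turn, the gene sum lay between 0.84 and 1.05 at 3 dat, −0.16 and 0.0957 at 6 dat, −1.11 and −0.82 in the change between 3 and 6 dat, 0.87 and 1.05 in HC buds at 3 against 1 dat, and −1.12 and −0.86 at 6 against 3 dat. Isoform i2 lay between −0.11 and 0.0548 at 1 dat and −0.26 and 0.15 at 6 dat, and i6 between −0.28 and 0.0604 on average, −0.23 and 0.00544 at 6 dat and 1.82 and 2.83 in the change between 1 and 3 dat (called once, adjusted p = 0.0314). The share difference lay between −2.43 and 0.666 points for i2 and −1.29 and 3.09 points for i7. The causes of these changes were not tested.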
